A study of Oryza sativa with 6 samples.

Results

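The 10 loci described here carry the main enzymes and signalling proteins of the gibberellin pathway of rice. They were chosen by identifier from the 55986 loci of the deposited expression table, and all 10 were found there. RNA was sequenced from dehulled developing seeds, taken 10 to 14 days after flowering from plants grown in chambers at 27 °C on a cycle of 12 h light and 12 h dark. The groups were rbpl, an RBP-L knockdown line, and WT, the wild-type cultivar ZH11, with 3 biological repeats each. How RBP-L was knocked down, and how many plants or seeds went into a repeat, is not given in the sources used here. Because the labels name a single knockdown line, what RBP-L does and what the origin of the line brings with it cannot be told apart.

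Gibberellins are diterpenoid hormones that promote stem growth, flower development and, in the cereal grain, the release of hydrolytic enzymes at germination. GA20ox and GA3ox enzymes carry out the last steps of the synthesis of active gibberellin, and GA2ox enzymes inactivate it. The hormone binds the soluble receptor GID1, the complex captures the DELLA repressor SLR1, and the F-box protein GID2 then brings SLR1 to the ubiquitin ligase that marks it for breakdown. The MYB transcription factor GAMYB acts downstream of SLR1 and switches on alpha-amylase genes in the aleurone of the germinating grain. Developing cereal seeds also make gibberellin themselves.

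The libraries held between 44187374 and 50714582 reads, as recovered from the steps of the deposited RPKM values (reads per unit of gene length and of library depth). RBP-L (LOC_Os04g53440) fell to 14.9 ± 0.481 RPKM in rbpl, against 56.9 ± 5.79 RPKM in WT (SD, n = 3 each; log2 fold change -1.86, adjusted p = 0.000159 by limma). Markers of the endosperm (6 of 6), of embryo and aleurone (4 of 4) and of green tissue (5 of 5) were all present, with none at 0. Their summed levels were 12239 to 13545 RPKM in rbpl and 13317 to 19921 RPKM in WT for endosperm, and 4704 to 6103 RPKM in rbpl and 4756 to 5272 RPKM in WT for embryo and aleurone. The green-tissue sum was 4552 to 5289 RPKM in rbpl and 2020 to 4165 RPKM in WT, without overlap. By limma 3 of the 5 green-tissue markers rose (4 without WT-1), where 3.46% of all tested loci rose (8.51% without WT-1). With all libraries 0 of 6 endosperm and 0 of 4 embryo and aleurone markers changed by limma or by limma-voom (3 and 1 at an unadjusted p below 0.05 by limma, beside 21.6% of all tested loci). Without WT-1, 2 endosperm markers fell, and 1 embryo and aleurone marker rose and 1 fell, where 9.51% of all tested loci fell. Groups did not overlap for 4 green-tissue markers, 3 endosperm markers (GluA1, GluA2 and Wx, all lower in rbpl) and 0 embryo and aleurone markers, beside 30.1% of all tested loci. The other endosperm markers, Glb1, RPBF and RISBZ1, overlapped. Their means in rbpl were higher, at 109%, 113% and 110% of the WT mean. The part of these shifts in the results below was not tested. Library WT-1 stood apart. Across the 17507 tested loci the correlation of log2 values was 0.965 and 0.966 between WT-1 and the other WT libraries, against 0.995 between WT-2 and WT-3. WT-2 and WT-3 were closer to the rbpl libraries, at 0.970 to 0.974, than to WT-1. WT-1 correlated with the rbpl libraries at 0.953 to 0.963. Results that rest on WT-1 are therefore given with and without it.

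In these seeds GID2, GID1 and SLR1 stood far above the 20-oxidase and 3-oxidase members. GID2 and GID1 had the highest levels of the 10, with means over all 6 libraries of 78.5 and 76.4 RPKM, followed by SLR1 with 56.6 RPKM. The ranges of GID2 and GID1 overlapped, and so did those of GID1 and SLR1. The inactivating GA2ox3 came next with 9.21 RPKM, its range clear of its neighbours on both sides (8.16 to 11.8 RPKM). GAMYB averaged 5.71 RPKM, GA3ox2 3.24, GA20ox1 3.14, GA20ox2 1.99 and GA2ox1 1.10 RPKM, and in this order each overlapped its neighbours among these 5. GA3ox1 was lowest with 0.0547 RPKM, and its highest library (0.110 RPKM) lay below the lowest of GA2ox1 (0.812 RPKM).

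**Figure D1:**
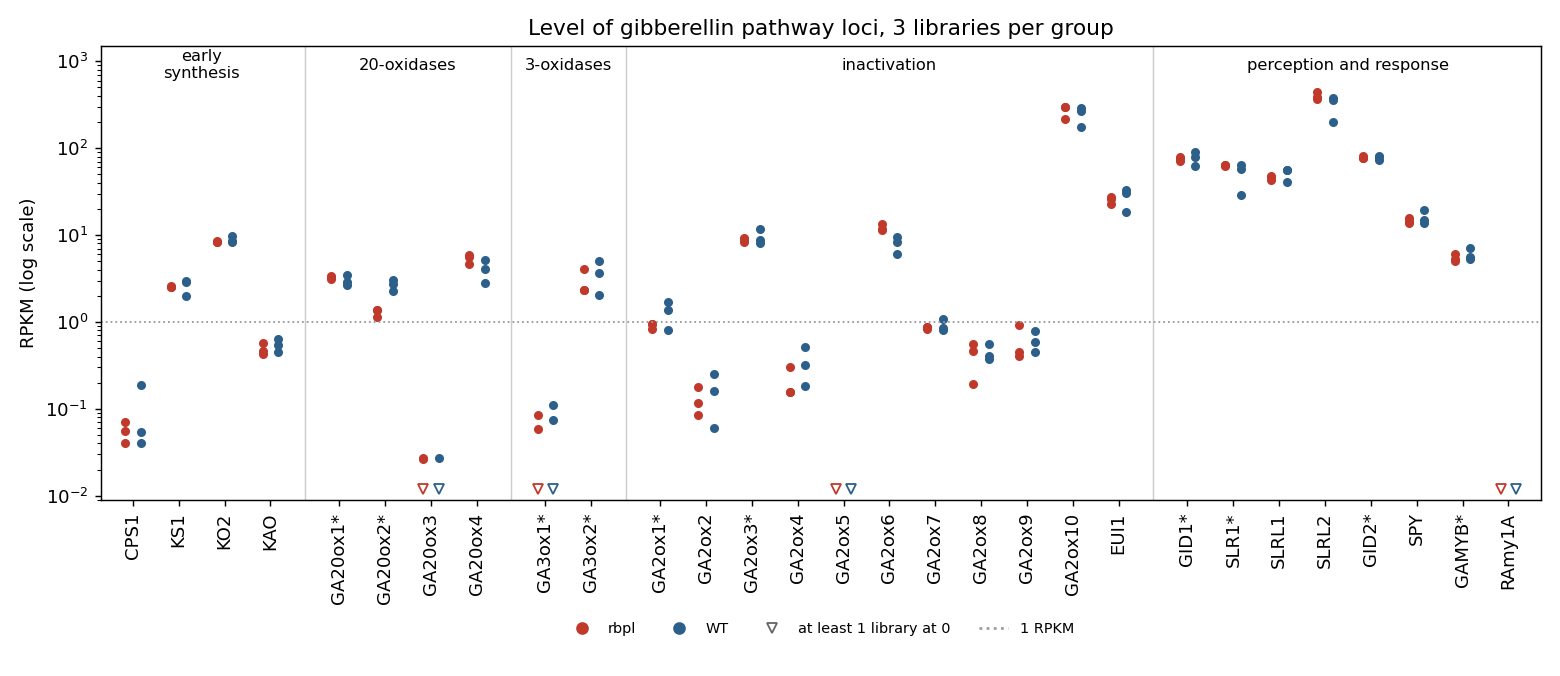
RPKM on a log axis of the 10 members (marked with an asterisk) and of 19 other pathway loci, with 1 point per library for rbpl (left, red) and WT (right, blue) and an open triangle where at least 1 library is at 0. GID1, SLR1 and GID2 lie between 28.9 and 91.4 RPKM, while the 20-oxidases and 3-oxidases stay below 6 RPKM.

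The 20-oxidases carry out the multi-step oxidation that yields the precursors of active gibberellin. GA20ox2 (LOC_Os01g66100, chromosome 1), the semidwarf gene SD1 of the Green Revolution rice varieties, had 1.15, 1.36 and 1.39 RPKM in rbpl, against 3.07, 2.25 and 2.71 RPKM in WT. All 3 rbpl libraries lay below all 3 WT libraries. These values rest on 85, 106 and 104 reads in rbpl and 224, 154 and 213 reads in WT. The highest 95% counting interval in rbpl reached 1.68 RPKM, and the lowest in WT began at 1.91 RPKM. These intervals hold counting error only and leave out the variation between repeats. Within WT, those of WT-1 (2.68 to 3.50 RPKM) and WT-2 (1.91 to 2.63 RPKM) did not overlap either. The mean was 1.30 ± 0.130 RPKM in rbpl and 2.68 ± 0.412 RPKM in WT (SD, n = 3 each), so that 48.6% of the WT level was left. GA20ox2 fell by 0.67 on the log2(RPKM + 1) scale (standard error 0.12, adjusted p = 0.0172 by limma). That scale understates the change of a low locus, and limma-voom on the recovered reads gave -1.03 on the log2 scale (standard error 0.20, adjusted p = 0.0196). In a seed, fewer cells that express the gene and less RNA per cell cannot be told apart.

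The call for GA20ox2 depended on which libraries were used, while its direction did not. Without WT-1 the log2 fold change was -0.60 (adjusted p = 0.00468 by limma), and without WT-2 the call also held. Without WT-3 the adjusted p was 0.0583 by limma. Without rbpl-1, rbpl-2 or rbpl-3 it was 0.0920, 0.0745 and 0.0681 by limma. The log2 fold changes were -0.62 to -0.70 in these 4 fits, which each called 356 to 667 loci over the whole table. The fit of all 6 libraries called 1148 loci, and that without WT-2 called 736. Of the 17507 tested loci, 455 (2.60%) had a log2 fold change at or below that of GA20ox2. This rank is on the log2(RPKM + 1) scale, which understates the change of a low locus such as GA20ox2.

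GA20ox1 (LOC_Os03g63970, chromosome 3) is a paralogue of the same enzyme class. It had 3.39, 3.13 and 3.32 RPKM in rbpl, against 2.68, 3.45 and 2.89 RPKM in WT, and the groups overlapped. Its log2 fold change was 0.10 with a 95% interval from -0.16 to 0.36 (adjusted p = 0.666 by limma). The ratio of GA20ox2 to GA20ox1 within a library, which no scaling between libraries can alter, was 0.340, 0.436 and 0.417 in rbpl and 1.15, 0.651 and 0.937 in WT. This ratio, picked after the values were seen, did not overlap between the groups (exact permutation p = 0.1, two-sided, the smallest that 3 against 3 allows). The summed level of both members was 4.58 ± 0.113 RPKM in rbpl and 5.69 ± 0.0759 RPKM in WT (SD, n = 3 each; exact permutation p = 0.1). Over the 4 20-oxidase loci followed here the groups overlapped, in a sum that was not among those planned. With GA20ox3 and GA20ox4 added, the sum was 10.0 ± 0.556 RPKM in rbpl and 9.73 ± 1.13 RPKM in WT (exact permutation p = 0.7), and the WT mean was 10.3 RPKM without WT-1.

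Shares within the sum of these 4 loci, also picked after the values were seen, were then compared in each library. GA20ox2 held 10.9%, 13.5% and 14.7% of this summed RPKM in rbpl, against 35.7%, 20.7% and 27.9% in WT. GA20ox4 held 56.6%, 55.6% and 49.7% in rbpl, against 32.9%, 47.5% and 42.3% in WT. Neither share overlapped between the groups (exact permutation p = 0.1 each). The shares of a library are parts of the same sum, so a lower share of GA20ox2 raises the others. These shares are therefore not separate results. GA20ox4 itself had 5.95, 5.63 and 4.68 RPKM in rbpl and 2.83, 5.16 and 4.10 RPKM in WT, overlapping levels with an adjusted p of 0.278 by limma. The share of GA20ox1 was 32.8 ± 2.24% in rbpl and 30.9 ± 1.02% in WT (SD, n = 3 each). Whether reads that fit several paralogues were shared among them is not given in the sources used here.

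**Figure D2:**
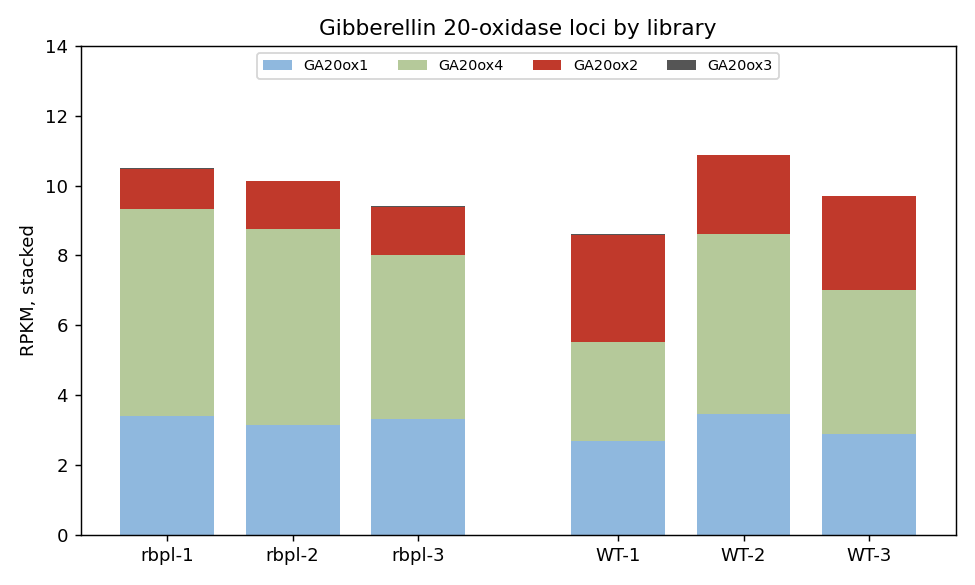
Stacked RPKM of the 4 gibberellin 20-oxidase loci followed here in each library, rbpl on the left and WT on the right. The GA20ox2 segment spans 1.15 to 1.39 RPKM in rbpl and 2.25 to 3.07 RPKM in WT, while the whole bars overlap between the groups (9.42 to 10.5 RPKM in rbpl and 8.61 to 10.9 RPKM in WT).

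The 3-oxidases make the active hormone in the step after the 20-oxidases. GA3ox2 (LOC_Os01g08220, chromosome 1), the D18 gene known from dwarf mutants, had 2.31, 4.09 and 2.33 RPKM in rbpl, against 2.03, 5.06 and 3.64 RPKM in WT. The libraries of one group differed among themselves as much as the groups did. In both groups the order followed the replicate number, with rbpl-1 and WT-1 lowest and rbpl-2 and WT-2 highest. With a replicate block the standard error of the log2 fold change was 0.16 instead of 0.27 (adjusted p = 0.566 by limma). The labels tie equal numbers to no shared plant or day. In rbpl the 95% counting interval of rbpl-2 (3.59 to 4.63 RPKM) lay wholly above that of rbpl-1 (1.93 to 2.74 RPKM), so the spread exceeded counting error. In WT the interval of WT-1 (1.68 to 2.44 RPKM) lay wholly below that of WT-2 (4.47 to 5.71 RPKM). The coefficient of variation was 35.1% in rbpl and 42.3% in WT, the highest of the 9 tested members in both groups. The log2 fold change was -0.20 with a 95% interval from -0.83 to 0.42 (adjusted p = 0.716 by limma). Without WT-1 it was -0.47 with an adjusted p of 0.154 by limma.

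GA3ox1 (LOC_Os05g08540, chromosome 5), the paralogue known mainly from flowers and anthers, was close to the limit of detection. It had 4, 0 and 6 reads in rbpl and 5, 0 and 8 reads in WT, or 0.0584, 0 and 0.0862 RPKM in rbpl and 0.0739, 0 and 0.110 RPKM in WT. A count of 0 allows up to 0.0416 RPKM in rbpl-2 and 0.0472 RPKM in WT-2 (3 reads per library, counting error only). GA3ox1 was the only one of the 10 members whose mean was below 1 RPKM in both groups, and it was not tested. GA3ox2 therefore held nearly all of the summed 3-oxidase level, which was 2.96 ± 0.978 RPKM in rbpl and 3.64 ± 1.48 RPKM in WT (SD, n = 3 each; exact permutation p = 0.7). This difference of -0.683 RPKM was -1.45 RPKM without WT-1 and 0.028 RPKM without WT-2.

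Both GA2ox members, which inactivate gibberellin by oxidation of its second carbon, differed in level and in behaviour. GA2ox3 (LOC_Os01g55240, chromosome 1) had 9.32, 8.97 and 8.26 RPKM in rbpl, against 11.8, 8.75 and 8.16 RPKM in WT. WT-1 was the high library, and the other 5 lay within 8.16 to 9.32 RPKM. The log2 fold change was -0.09 with a 95% interval from -0.42 to 0.24, and 0.06 from -0.15 to 0.27 without WT-1 (adjusted p = 0.765 and 0.730 by limma). GA2ox1 (LOC_Os05g06670, chromosome 5) had 0.840, 0.943 and 0.940 RPKM in rbpl, against 0.812, 1.70 and 1.39 RPKM in WT. Here WT-1 was the low library, below all of rbpl, while WT-2 and WT-3 lay above all of rbpl.

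The result for GA2ox1 turned on that library. Its mean was 0.908 RPKM in rbpl and 1.30 RPKM in WT (1.54 RPKM without WT-1), so it reached the minimum of 1 RPKM, and with it the test, through WT alone, the group where it was higher. With all 6 libraries GA2ox1 differed by -0.25 on the log2(RPKM + 1) scale (standard error 0.15, adjusted p = 0.394 by limma). On the log2 scale limma-voom gave -0.45 (standard error 0.30, adjusted p = 0.432). Without WT-1 the difference in log2(RPKM + 1) was -0.41 (standard error 0.12, adjusted p = 0.0292 by limma). That call was made in no other of the 12 alternatives for GA2ox1. The values rest on 66, 78 and 75 reads in rbpl and 63, 124 and 116 reads in WT. The summed level of GA2ox1 and GA2ox3 was 9.76 ± 0.498 RPKM in rbpl and 10.9 ± 1.58 RPKM in WT (SD, n = 3 each; exact permutation p = 0.4). The difference was -1.12 RPKM with all libraries and -0.245 RPKM without WT-1. The sum of these members leaves out the other GA2ox loci. Of those, GA2ox10 alone had means of 271 RPKM in rbpl and 245 RPKM in WT, with overlapping groups.

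Of the perception genes, the receptor GID1 (LOC_Os05g33730, chromosome 5) had 79.9, 74.8 and 71.0 RPKM in rbpl, against 62.3, 91.4 and 79.2 RPKM in WT. The WT libraries lay on both sides of rbpl. Its log2 fold change was -0.03 with a 95% interval from -0.37 to 0.31 (adjusted p = 0.934 by limma). The F-box gene GID2 (LOC_Os02g36974, chromosome 2) had 76.5, 77.1 and 82.3 RPKM in rbpl and 79.8, 81.6 and 73.8 RPKM in WT. With all libraries its coefficient of variation in WT, 5.24%, was the lowest of the tested members. In rbpl it was 4.02%, above the 2.01% of SLR1. The log2 fold change of GID2 was 0.0049 with a 95% interval from -0.22 to 0.23 (adjusted p = 0.984 by limma).

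SLR1 (LOC_Os03g49990, chromosome 3), the DELLA repressor, had 64.0, 63.4 and 61.6 RPKM in rbpl, against 28.9, 63.4 and 58.1 RPKM in WT. WT-1 stood far below the other 5 libraries, which lay within 58.1 to 64.0 RPKM. This low value rests on 3470 reads, with a 95% counting interval of 27.9 to 29.8 RPKM. The mean was 63.0 ± 1.26 RPKM in rbpl and 50.1 ± 18.6 RPKM in WT (SD, n = 3 each), and 60.7 RPKM in WT without WT-1. The log2 fold change was 0.40 with a 95% interval from -0.21 to 1.02 (adjusted p = 0.427 by limma). Without WT-1 it was 0.05 with an interval from -0.13 to 0.24 (adjusted p = 0.714 by limma). The ratio of GID1 to SLR1 within a library was 1.25, 1.18 and 1.15 in rbpl and 2.16, 1.44 and 1.36 in WT. This ratio, also picked after the values were seen, did not overlap between the groups with or without WT-1 (exact permutation p = 0.1 over all 6 libraries). A further ratio, that of SLR1 to GID2, was 0.837, 0.822 and 0.749 in rbpl and 0.361, 0.777 and 0.787 in WT. It overlapped between the groups (exact permutation p = 0.3). How often the ratio of any other pair of loci separates the groups was not tested.

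GAMYB (LOC_Os01g59660, chromosome 1) had 5.32, 4.97 and 6.00 RPKM in rbpl, against 7.05, 5.59 and 5.34 RPKM in WT. WT-1 was again the extreme library and the groups overlapped. The log2 fold change was -0.12 with a 95% interval from -0.41 to 0.18 (adjusted p = 0.652 by limma), and -0.01 without WT-1. The alpha-amylase gene RAmy1A (LOC_Os02g52710), a GAMYB target of the germinating grain, was listed at 0 in all 6 libraries.

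**Figure D3:**
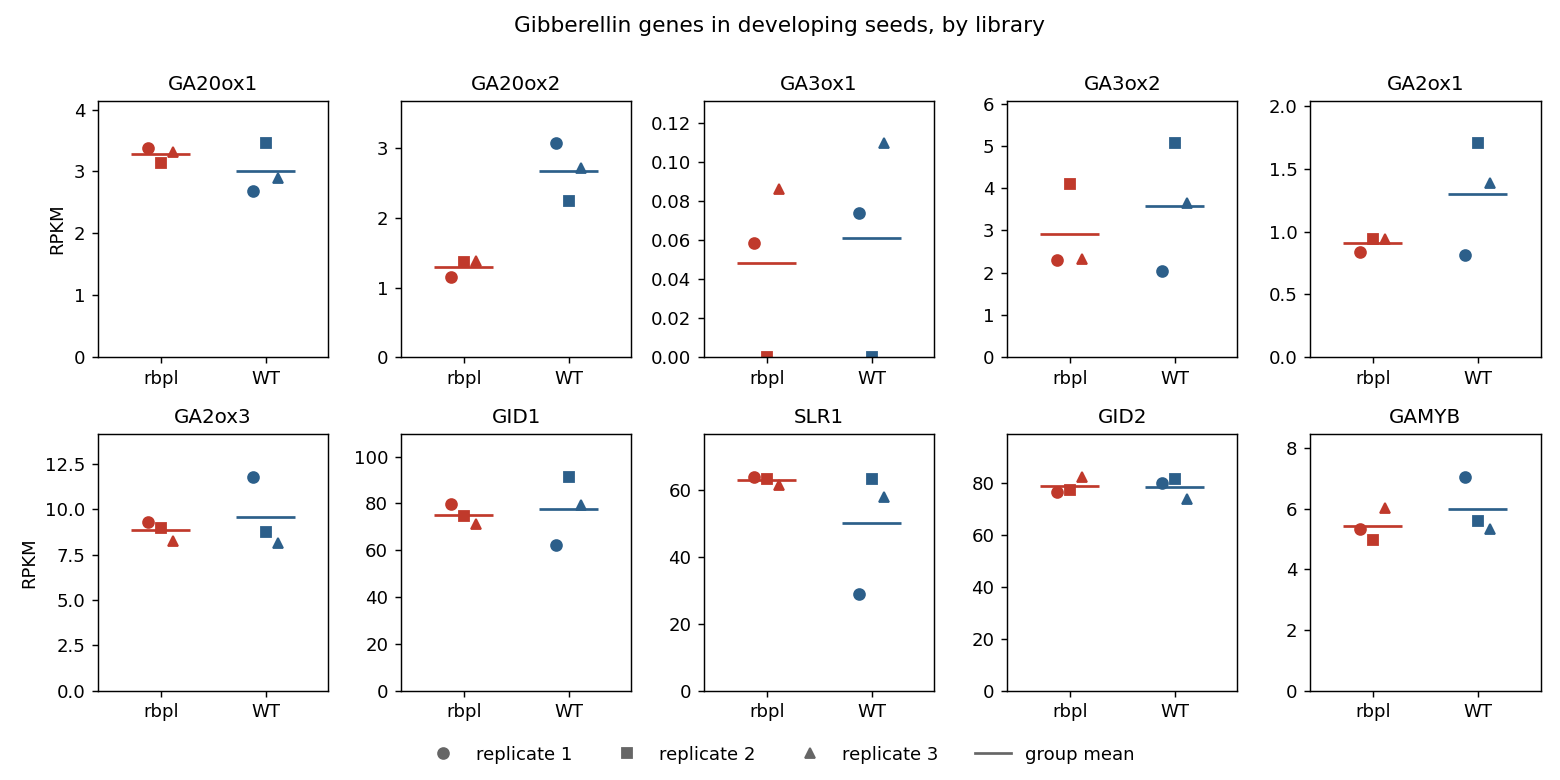
RPKM of each of the 10 members by library, rbpl left and WT right, with a symbol per replicate number and a line at the group mean. GA20ox2 is the only panel without overlap, and WT-1 (blue circle) lies apart from the other 5 libraries for SLR1 at 28.9 RPKM.

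Of the 10 members, 9 passed the minimum, of which 1 fell (GA20ox2), 0 rose and 8 did not pass the threshold by limma. Across all 17507 tested loci, 3.10% fell and 3.46% rose. At an unadjusted p below 0.05 the members counted 1 lower and 0 higher by limma, beside 12.2% of all tested loci lower and 9.41% higher. On the recovered reads limma-voom also called 1 lower and 0 higher, where it called 3.26% of all tested loci lower and 3.44% higher. The median log2 fold change of the 9 was -0.09, beside -0.04 over all tested loci. Groups did not overlap for 1 of the 9, against 30.1% of all tested loci. A share of 1 in 9 does not set these loci apart from the table as a whole. Without WT-1, GA20ox2 fell, as did GA2ox1, which was tested only through its higher level in WT, and 0 members rose, where 9.51% of the 17372 tested loci fell and 8.51% rose.

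WT-1 was the lowest of the 6 libraries for 5 of the 9 tested members and the highest for 3. Among all tested loci the balance ran the other way, with WT-1 the lowest for 23.9% and the highest for 41.4%. It was thus an extreme for 65.3% of them, against 22.6% to 33.0% for each other library. GA20ox1, GA3ox2, GA2ox1, GID1 and SLR1 were lowest there. GA20ox2, GA2ox3 and GAMYB were highest there. Without WT-1 the 95% intervals narrowed for all 9 members, and the widest of them was that of GA3ox2, from -0.93 to -0.01.

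**Figure D4:**
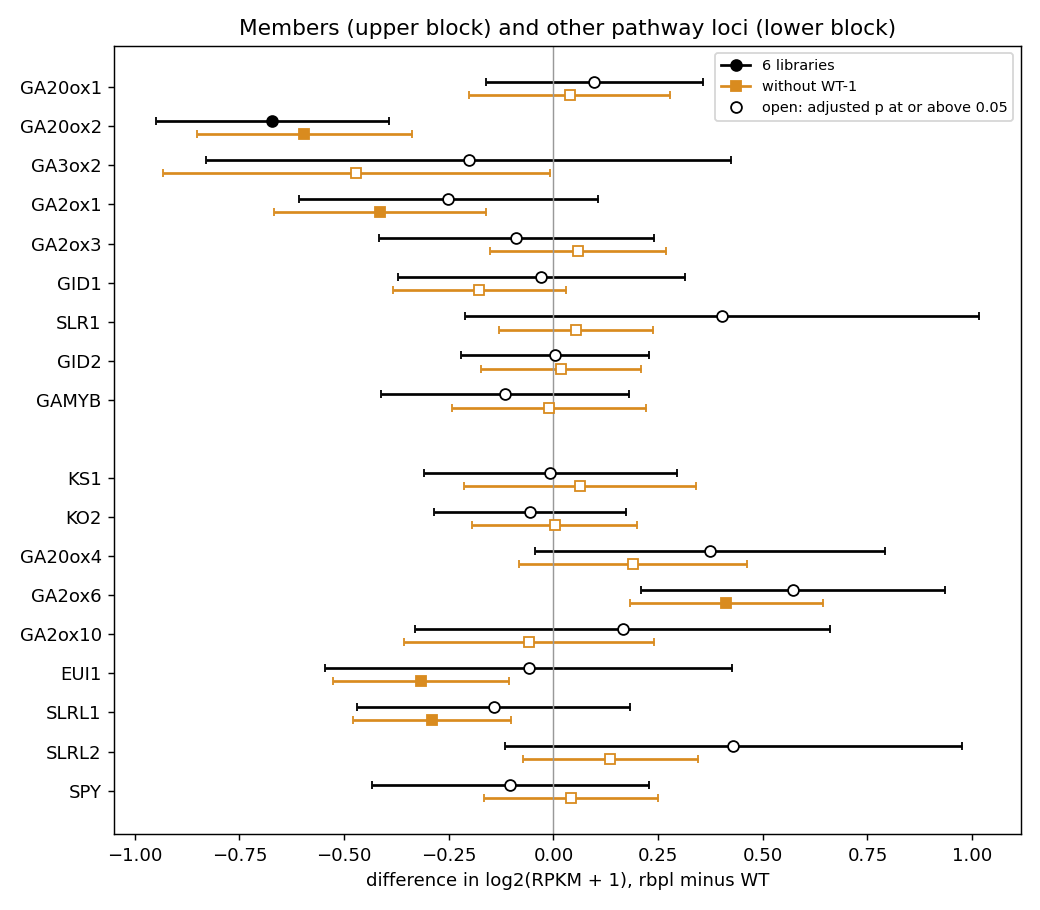
Difference in log2(RPKM + 1), rbpl minus WT, with 95% intervals from limma for the 9 tested members (upper block) and 9 other tested pathway loci (lower block), with all 6 libraries (black circles) and without WT-1 (orange squares). Filled symbols have an adjusted p below 0.05. GA20ox2 is filled in both fits, and the point of SLR1 lies at 0.40 with all libraries and at 0.05 without WT-1.

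A further 19 loci of the pathway were followed, named by the usual rice nomenclature, which the file does not pair with its identifiers. Of these, 9 passed the minimum, 10 did not, and 0 changed by limma, where 6.56% of all tested loci did. At an unadjusted p below 0.05 there was 1 (GA2ox6), beside 21.6% of all tested loci by limma, and limma-voom called 0 at its adjusted threshold, beside 6.70% of all tested loci. In early synthesis, 0 of 2 tested of 4 changed, with KO2 (LOC_Os06g37364), the ent-kaurene oxidase, highest at 8.43 ± 0.130 RPKM in rbpl and 8.82 ± 0.724 RPKM in WT (SD, n = 3 each). CPS1 and KAO stayed below 1 RPKM. In late synthesis GA20ox4 was tested and did not pass, and GA20ox3 (LOC_Os07g07420) had at most 2 reads in a library.

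In inactivation, 0 of 3 tested of 9 changed. GA2ox6 (LOC_Os04g44150) had 13.5, 11.8 and 11.3 RPKM in rbpl, against 6.10, 9.53 and 8.29 RPKM in WT. Its groups did not overlap, but its log2 fold change of 0.57 had an adjusted p of 0.0761 by limma. It was the 1 locus without overlap among the 9 tested loci of this list, beside 30.1% of all tested loci. GA2ox10 (LOC_Os05g11810) was the most abundant locus of this step, at 271 ± 46.4 RPKM in rbpl and 245 ± 61.0 RPKM in WT (SD, n = 3 each). EUI1 (LOC_Os05g40384), a cytochrome P450 that inactivates gibberellin by another reaction, had 25.4 ± 2.18 RPKM in rbpl and 27.3 ± 7.93 RPKM in WT. GA2ox5 (LOC_Os07g01340) was listed at 0 in all 6 libraries.

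In signalling, 0 of 3 tested of 3 changed. SLRL2 (LOC_Os05g49930), a relative of SLR1 among the GRAS proteins, had 390, 443 and 371 RPKM in rbpl, against 197, 373 and 355 RPKM in WT. It was the most abundant of the 29 loci, and WT-1 held the lowest value, as for SLR1. Its log2 fold change was 0.43 with all libraries and 0.14 without WT-1 (adjusted p = 0.338 and 0.366 by limma). SLRL1 (LOC_Os01g45860), another relative, had 47.3, 46.6 and 42.5 RPKM in rbpl and 40.8, 55.9 and 55.6 RPKM in WT. WT-1 was the lowest or the highest library for all 9 tested loci of this list, 6 times the lowest and 3 times the highest, beside 23.9% and 41.4% of all tested loci. Without WT-1, GA2ox6 rose (log2 fold change 0.41, adjusted p = 0.0188), and EUI1 and SLRL1 fell (-0.32 and -0.29, adjusted p = 0.0421 and 0.0377 by limma), 3 of 9 where 18.0% of all tested loci changed.

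For GA20ox2 the authors' deposited table gives a log2 fold change of -1.04 and an unadjusted p of 0.00526. It is the only member there with a p below 0.05, beside 13.7% of the 32287 loci that have a p in the authors' deposited table. The other 9 members have unadjusted p-values between 0.210 and 0.940 in the authors' deposited table. Those values and the limma results come from the same libraries and are no separate evidence.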

How the data were processed

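The authors deposited RPKM per locus for 6 libraries, beside group means, their ratio and its log2, and p-values also given as −log10, per the file headers. Libraries came from the NEBNext Ultra kit, per the labels' protocols. How reads were aligned and counted, and on which build, is not given in the sources used here, so no coordinates are printed. The file's identifiers carry the chromosome, and 0 of them matched the 39387 genes of the reference table. The members, gene lists and ratios were chosen with earlier results of these data known.

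Loci with at least 1 RPKM in a group mean (17507) were tested on log2(RPKM + 1) with limma 3.58.1 under R 4.3.3, using its robust and trend options, two-sided. Adjustment was Benjamini-Hochberg over all of them, with a threshold of 0.05. Log2 fold changes by limma are differences on the log2(RPKM + 1) scale, which understates the change of a low locus. Whole reads were recovered from the steps of the RPKM values: of 32287 loci above 0, 32287 came out whole within 0.001 reads or, where larger, 4e-09 of the count. A divisor shared by all 6 counts cannot be seen. Recovered reads gave depth, exact Poisson intervals (95%, counting error only) and 1 alternative, limma-voom. Exact permutation tests (two-sided) served for sums, shares and ratios. All members, the highest locus of each step and loci past the threshold in some fit are named. Other low loci were named after their values were seen. The limma fit and the recovery of reads were tested on simulated data. Python 3.11.15 with numpy 2.4.6, pandas 2.3.3, scipy 1.17.1 and matplotlib 3.10.9 was used. Nothing in the labels ties equal replicate numbers to a shared plant or day. Replicate pairs differed by more than counting error in each group.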

Additional observations from a re-analysis of the deposited data

How the results depend on the processing

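All 13 alternatives were planned. GA20ox2 was lower in rbpl in the 12 that tested it, and RBP-L fell in all 13. The log2 fold changes of GA20ox2 ran from -1.03 (limma-voom) to -0.60, with adjusted p of 0.00468 to 0.0920 by limma. With the filter at 5 RPKM, which leaves out GA20ox2, 660 of 10744 loci changed and 0 members fell. With 1 library left out the changed loci numbered 356 (no rbpl-1) to 3130 (no WT-1), the members that fell 0 to 2, and the other pathway loci that changed 0 to 3. Without a filter on low values 783 loci changed. Of the calls, 52.7% rose, and 62.3% with median-of-ratios scaling (705 rose, 426 fell). The summed GA20ox members differed by -1.11 RPKM, by -0.84 with median-of-ratios and by -0.917 with upper-quartile scaling; the cause was not tested. The summed GA2ox members differed by -1.12 RPKM, by -0.526 and -0.70 with these scalings, and by -1.78 (no WT-3) to -0.245 (no WT-1) with 1 library left out; the summed GA3ox members by -0.683, and by -1.45 (no WT-1) to 0.028 (no WT-2). Signs turned, with no call, with median-of-ratios scaling for GID1 (0.045), KO2 (0.012), EUI1 (0.014) and KS1 (0.048), with upper-quartile scaling for GID1 (0.024) and KS1 (0.032), and with limma-voom for KS1 (0.0024), whose log2 fold change was -0.0071. They also turned when 1 library was left out, over which the log2 fold change ran from -0.47 to 0.029 for GA3ox2, -0.18 to 0.058 for GA2ox3, -0.18 to 0.095 for GID1, -0.038 to 0.034 for GID2, -0.094 to 0.0035 for KO2, -0.058 to 0.32 for GA2ox10, -0.32 to 0.095 for EUI1, -0.13 to 0.063 for KS1 and -0.20 to 0.043 for SPY. GAMYB and SLR1 kept their sign in all 13, and 0 members rose in any.

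A replicate block gave 963 changed loci, and GA20ox2 again was the member that fell. Deviations of same-numbered samples correlated at 0.0476, 0.259 and -0.380, and 2 of the 6 had their highest correlation with the same number. With so few pairs, and WT-1 apart, this check cannot decide whether equal numbers mark a shared batch. The count tests for a file of reads were not run, since the file holds RPKM. Depth limits GA3ox1, GA20ox3 and the loci at 0, where 3 reads set the floor.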
